A study of Mus musculus with 2 samples.

Results

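Rit2, Csmd1, Lamp5, Pla2g12b, Minar2, Galnt13, Gabrr3, Rspo1 and Tmem212 are 9 of the 16716 protein-coding genes with at least 50 sequenced fragments in nephron progenitor-like nuclei of fetal mouse kidney. They were chosen by measured values, as genes whose chromatin opens out of place in Enl-T1 progenitors (Gabrr3 also in stroma), so their Enl-T1 to Enl-WT contrast in progenitors, and that of Gabrr3 in stroma, is described here without a test. Every peak that touched the gene body or the 2 kb upstream of it (GENCODE M21, mouse build mm10) was taken, which gave 66 of 159560 peaks called in the Enl-WT library and 79 of 130027 called in the Enl-T1 library. Where peaks of both libraries shared 1 bp or more they were merged, and 49 of the 110706 shared regions lay in the 9 genes.

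Single-nucleus ATAC-seq, which marks open chromatin by the cuts a transposase makes in it, was performed on kidneys of E15.5 embryos, with 1 library for each genotype. Enl-WT embryos were Enl+/+; Wt1 GFPCre/+, and Enl-T1 embryos were Enl flox-T1/+; Wt1 GFPCre/+, so that both carried the Wt1 GFPCre knock-in, which inactivates 1 Wt1 allele and drives Cre in nephron and stromal progenitors. T1 is a heterozygous in-frame insertion in the YEATS domain of ENL, a reader of acylated histones that recruits elongation factors, and it was first found in Wilms tumour. The number of embryos pooled is not stated in the labels or the study's methods. With 1 library for each genotype there is no replicate, so no p-value is given, and every interval is a 95% interval for counting error only.

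The deposited counts held 9628 barcodes for Enl-WT and 13376 for Enl-T1, of which 9472 and 12635 had 2000 to 100000 counts. Enl-WT nuclei were deeper, with a median of 14789.5 counts against 8753. A total of 149 of the kept barcodes occurred in both libraries. Clusters formed without the 49 regions of the 9 genes were named from marker genes, giving 2266 Enl-WT and 4305 Enl-T1 nephron progenitor-like nuclei, 2923 and 4795 stroma-like, 938 and 1898 ureteric epithelium-like, and 778 and 627 endothelial-like nuclei. Different clusters held most of the progenitors in each library, clusters 4 and 11 in Enl-WT and clusters 0 and 5 in Enl-T1, and a cluster that comes mostly from 1 library may reflect that library and not a cell state. Of the 8 nephron progenitor markers, all had counts in both libraries and 1 was higher in Enl-T1, and their summed level was 367 CPM (counts scaled so that the shared regions of a class sum to 1000000 in each library) in Enl-WT and 312 CPM in Enl-T1 progenitors, against 256 and 274 CPM in stroma-like nuclei.

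Nephron progenitors are the mesenchymal cells around the ureteric bud tips that self-renew or, on Wnt signals, become the epithelia of the nephron. Most of the 9 genes are known from the nervous system, liver or gonad and not as nephron regulators. Rspo1 encodes a secreted amplifier of Wnt signalling, which binds LGR receptors and keeps the ubiquitin ligases RNF43 and ZNRF3 from removing Wnt receptors. Gabrr3 (a subunit of GABA-gated chloride channels), Csmd1 (a large protein with complement-control domains), Minar2, Lamp5 (a neuronal member of the lysosomal membrane protein family) and Tmem212 encode membrane proteins. Galnt13 starts O-linked glycosylation in neurons, Pla2g12b is a phospholipase-like protein needed for lipoprotein secretion by the liver, and Rit2 is a neuronal Ras-like GTPase.

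The sequences below are the central 200 bases, on the plus strand of GRCm38.p6, the assembly behind mm10, of intronic shared regions of the genes. For each gene the intronic region with the most progenitor counts is shown, and for Galnt13 and Csmd1 also the one with the highest Enl-T1 to Enl-WT ratio. Capitals mark matches, on either strand, to CATAAA (a Hox9-type site), TTTACGA (Hox11-type), CTTTGA (TCF/LEF), CAGCTG (E-box), TGANTCA (AP-1), CATTCC (TEAD) and TAATTA (homeobox).
Galnt13, region 4, chr2:54841336-54841535: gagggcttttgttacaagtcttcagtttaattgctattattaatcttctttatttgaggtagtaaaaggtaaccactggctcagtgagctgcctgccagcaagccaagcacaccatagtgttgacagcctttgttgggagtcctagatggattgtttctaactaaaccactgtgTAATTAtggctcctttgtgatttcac
Galnt13, region 6, chr2:54959419-54959618: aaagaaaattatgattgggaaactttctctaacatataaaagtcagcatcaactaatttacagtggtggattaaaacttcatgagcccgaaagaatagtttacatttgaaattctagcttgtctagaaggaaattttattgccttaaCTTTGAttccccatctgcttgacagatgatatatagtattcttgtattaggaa
Pla2g12b, region 1, chr10:59408318-59408517: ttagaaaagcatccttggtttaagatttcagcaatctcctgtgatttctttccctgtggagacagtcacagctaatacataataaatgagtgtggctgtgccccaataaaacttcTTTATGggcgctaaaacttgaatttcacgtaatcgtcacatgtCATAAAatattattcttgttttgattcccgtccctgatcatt
Gabrr3, region 6, chr16:59445070-59445269: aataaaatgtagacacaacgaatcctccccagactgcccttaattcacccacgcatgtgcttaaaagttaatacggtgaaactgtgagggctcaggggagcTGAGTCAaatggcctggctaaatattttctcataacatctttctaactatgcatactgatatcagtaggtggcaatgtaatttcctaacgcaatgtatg
Csmd1, region 6, chr8:17356862-17357061: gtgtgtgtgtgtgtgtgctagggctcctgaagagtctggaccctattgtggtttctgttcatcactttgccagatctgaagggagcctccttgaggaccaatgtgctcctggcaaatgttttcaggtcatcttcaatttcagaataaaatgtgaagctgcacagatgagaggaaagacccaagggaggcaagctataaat
Csmd1, region 8, chr8:17266362-17266561: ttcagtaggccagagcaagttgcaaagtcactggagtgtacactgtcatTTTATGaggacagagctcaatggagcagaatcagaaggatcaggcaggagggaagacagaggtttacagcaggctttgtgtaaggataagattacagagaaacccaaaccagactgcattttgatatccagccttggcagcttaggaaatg
Tmem212, region 6, chr3:27879046-27879245: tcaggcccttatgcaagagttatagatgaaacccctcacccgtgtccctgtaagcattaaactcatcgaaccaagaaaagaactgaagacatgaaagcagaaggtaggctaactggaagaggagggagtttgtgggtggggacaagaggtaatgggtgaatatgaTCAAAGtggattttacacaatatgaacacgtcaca
Rspo1, region 3, chr4:124989848-124990047: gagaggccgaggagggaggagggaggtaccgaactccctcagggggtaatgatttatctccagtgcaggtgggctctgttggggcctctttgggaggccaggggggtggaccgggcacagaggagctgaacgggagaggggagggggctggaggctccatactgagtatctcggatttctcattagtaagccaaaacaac
The 2 Galnt13 regions are the ones where accessibility differed most between the libraries, and the Rspo1 region is the one of those shown that was higher in Enl-WT. No sequence is shown for Rit2, Minar2 and Lamp5.

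A match is a description and not a binding site. Over 42 shared regions of the genes (those on chromosome 18 left out), CATAAA lay in the central 200 bases of 14.3% against 13.1% of all 106849 shared regions. CTTTGA was found in 21.4% (9 regions) against 13.2%, CAGCTG in 19.0% (8 regions) against 17.9% and TGANTCA in 11.9% (5 regions) against 7.26%, all at the higher share in the 9 genes. The shares of CATTCC were 9.52% and 12.8%, and those of TAATTA 4.76% and 4.97%. TTTACGA had no match in the 42 regions and 0.632% in all regions. The regions were poorer in G and C than the rest, with a median GC content of 46.8% against 50.5%. In the 16 of these regions that were at least 2-fold higher in Enl-T1 progenitors, the order of some motifs changed. The TCF/LEF, E-box and TEAD motifs each matched in 2 regions (12.5%), below their shares of all regions. The Hox9-type and AP-1 motifs each matched in 3 (18.8%) and the homeobox motif in 2 (12.5%), above theirs. The Hox11-type motif had no match. Counts this small say little. Motifs were sought on both strands and may overlap.

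In nephron progenitor-like nuclei, 4 of the 9 genes were at least 2-fold higher in Enl-T1 (0.395% of all genes tested were) and 0 were at least 2-fold lower (0.419% of all genes tested). Since the contrast chose the genes, these counts are a description. The median of the 9 log2 ratios was 0.61, against 0.00 over all 16716 genes. The 4 genes were Galnt13, Pla2g12b, Tmem212 and Gabrr3, of which Tmem212 and Gabrr3 lay at the 2-fold line, with ratios of 1.02 and 1.00 and intervals that reach below it. Galnt13 had the highest ratio of all genes tested. Ectopic opening does not describe Rspo1, which was lower in Enl-T1, and the other genes all had counts in Enl-WT progenitors. Per kb of shared peaks, Galnt13 had 2.72 CPM there, and the others had 4.79 (Csmd1) to 42.4 (Rspo1). No level was set below which a gene is closed. The median was 0.33 over start-site regions alone. It was 0.38 where lists of cells from outside the kidney also counted in naming, a rule tried after seeing the data. That rule leaves cluster 0, with 2543 Enl-T1 nuclei, unnamed, so that 1762 of the 4305 Enl-T1 progenitors remain. The marker score of cluster 0 was 0.51 for the nephron progenitor list, with 4 of 8 markers raised, and 0.48 for the neuronal list. With that naming the log2 ratios were 0.17 for Lamp5, 0.18 for Rit2, 0.33 for Csmd1, 0.38 for Minar2, 0.60 for Tmem212, which was then under 2-fold, and -0.36 for Rspo1, while Galnt13 had 1.92.

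Rspo1 (chr4:124986430-125009099, plus strand), the one secreted signal among the genes, had 99.5 CPM (94.7 to 105) in Enl-WT progenitors and 66.8 (63.3 to 70.5) in Enl-T1 progenitors. The log2 ratio was -0.58 (-0.68 to -0.47), which ranked 16326 of 16716 genes. Both shared regions were lower in Enl-T1. By cluster, Enl-T1 nuclei had 59.0 CPM (54.7 to 63.5) in cluster 0 and 34.6 (27.1 to 43.7) in cluster 18, while cluster 5 had 91.0 (83.5 to 99.1), an interval that overlaps that of Enl-WT cluster 11 at 88.2 (81.4 to 95.4). The region at the start site had 28.5 CPM in Enl-WT against 19.3, and the intronic region 2978 bp downstream, shown above, had 71.0 against 47.5. The peak just upstream of the start site, with 37.6 CPM in Enl-WT progenitors, was called in Enl-WT alone, as were the other 2 unshared Rspo1 peaks. Early nephron epithelium-like nuclei had the same direction, with 86.7 CPM of Rspo1 in Enl-WT against 42.5 and a log2 ratio of -1.03 (-1.59 to -0.50). In stroma-like nuclei Rspo1 had 11.7 CPM against 10.9, and in ureteric epithelium-like nuclei 10.1 against 9.70, and the interval of the ratio contains 0 in both classes.

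Among the membrane proteins, Gabrr3 and Tmem212 had the highest ratios. Gabrr3 (chr16:59407332-59464504, plus strand) had 31.3 CPM (28.6 to 34.1) in Enl-WT progenitors against 62.6 (59.2 to 66.1), a log2 ratio of 1.00 (0.85 to 1.15). Its intronic region 37346 bp from the start site, shown above, had 12.5 CPM against 34.1, more than any of its other regions in both libraries. The region 43604 bp from the start site had the opposite order, 6.77 CPM against 4.93, with a log2 ratio of -0.46 (-0.87 to -0.05). No Gabrr3 peak lay at its start site. Tmem212 (chr3:27866066-27896368, minus strand) had 44.9 CPM (41.7 to 48.4) in Enl-WT progenitors against 91.2 (87.1 to 95.4), a log2 ratio of 1.02 (0.90 to 1.15). Its start site and gene body differed in direction. The start-site region had 7.03 CPM in Enl-WT against 4.22, with a log2 ratio of -0.74 (-1.16 to -0.32), while the other 5 shared regions had ratios of 0.71 to 1.89.

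Csmd1 (chr8:15892537-17535586, minus strand), a gene of 1643050 bp, had 95.8 CPM (91.1 to 101) in Enl-WT progenitors against 141 (136 to 146), a log2 ratio of 0.56 (0.47 to 0.65). The difference was uneven along the gene. The start-site region had 9.03 CPM against 9.42, whereas intronic regions 6 and 7, which lie 178097 and 191067 bp from the start site, had 5.74 against 20.1 and 3.92 against 13.3. Of the 20 shared Csmd1 regions, 3 were at least 2-fold higher. Minar2 (chr18:59062248-59076962, plus strand) had 50.1 CPM in Enl-WT progenitors against 76.5, a log2 ratio of 0.61 (0.49 to 0.73), and its 3 regions had ratios of 0.38 to 0.91, with the lowest at the start site and the highest in the UTR exon at its far end. Lamp5 (chr2:136052239-136069917, plus strand) had the lowest ratio of the 8 genes that were higher, 0.28 (0.16 to 0.39), from 62.7 CPM (58.9 to 66.7) against 76.0 (72.2 to 79.9). Most Lamp5 counts lay in the region at its first start site, which had 47.8 CPM in Enl-WT against 60.3.

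Of the enzymes and the GTPase, Galnt13 (chr2:54436317-55118309, plus strand) had 11.9 CPM in Enl-WT progenitors (10.2 to 13.7) against 56.2 (52.9 to 59.5) in Enl-T1, and a log2 ratio of 2.24 (2.02 to 2.47). All 4 shared regions were higher in Enl-T1. The region 404480 bp into the gene had 2.07 CPM against 20.6, a log2 ratio of 3.31 (2.80 to 3.87), and that 522642 bp into it 1.19 against 12.1, a ratio of 3.35 (2.67 to 4.10). The start-site region had a lower ratio, 1.22 (0.93 to 1.53), from 7.78 CPM against 18.1. The region 46848 bp from the start site, which had 0.847 CPM in progenitors of the Enl-WT library against 5.30, was open in stroma-like nuclei of both genotypes, at 12.6 and 11.0 CPM. A further 5 Galnt13 peaks were called in Enl-T1 alone and 0 in Enl-WT alone, against 17478 and 47872 regions over the whole genome. The contrast chose the gene, so this count is a description.

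Pla2g12b (chr10:59403660-59421976, plus strand) had 25.0 CPM (22.6 to 27.5) in Enl-WT progenitors against 56.5 (53.3 to 59.9), a log2 ratio of 1.18 (1.01 to 1.35), and its 2 shared regions had ratios of 1.21 and 1.07. Neither covers the gene's first start site. The larger region was called as 1767 bp from the Enl-WT reads but 857 bp from the Enl-T1 reads, so the Enl-WT counts come from the wider interval. Rit2 (chr18:30973489-31317290, minus strand) had 40.9 CPM (37.8 to 44.2) in Enl-WT progenitors against 58.6 (55.3 to 62.0), a log2 ratio of 0.52 (0.38 to 0.66). Its region with the most counts in Enl-WT, 98883 bp from the start site, had 21.5 CPM against 19.2, a ratio whose interval contains 0, and the region 230663 bp from the start site had 10.9 against 22.2. Rit2 had 10 peaks called in Enl-T1 alone and 1 in Enl-WT alone, to be read against the same totals and with the same limit.

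**Figure D1:**
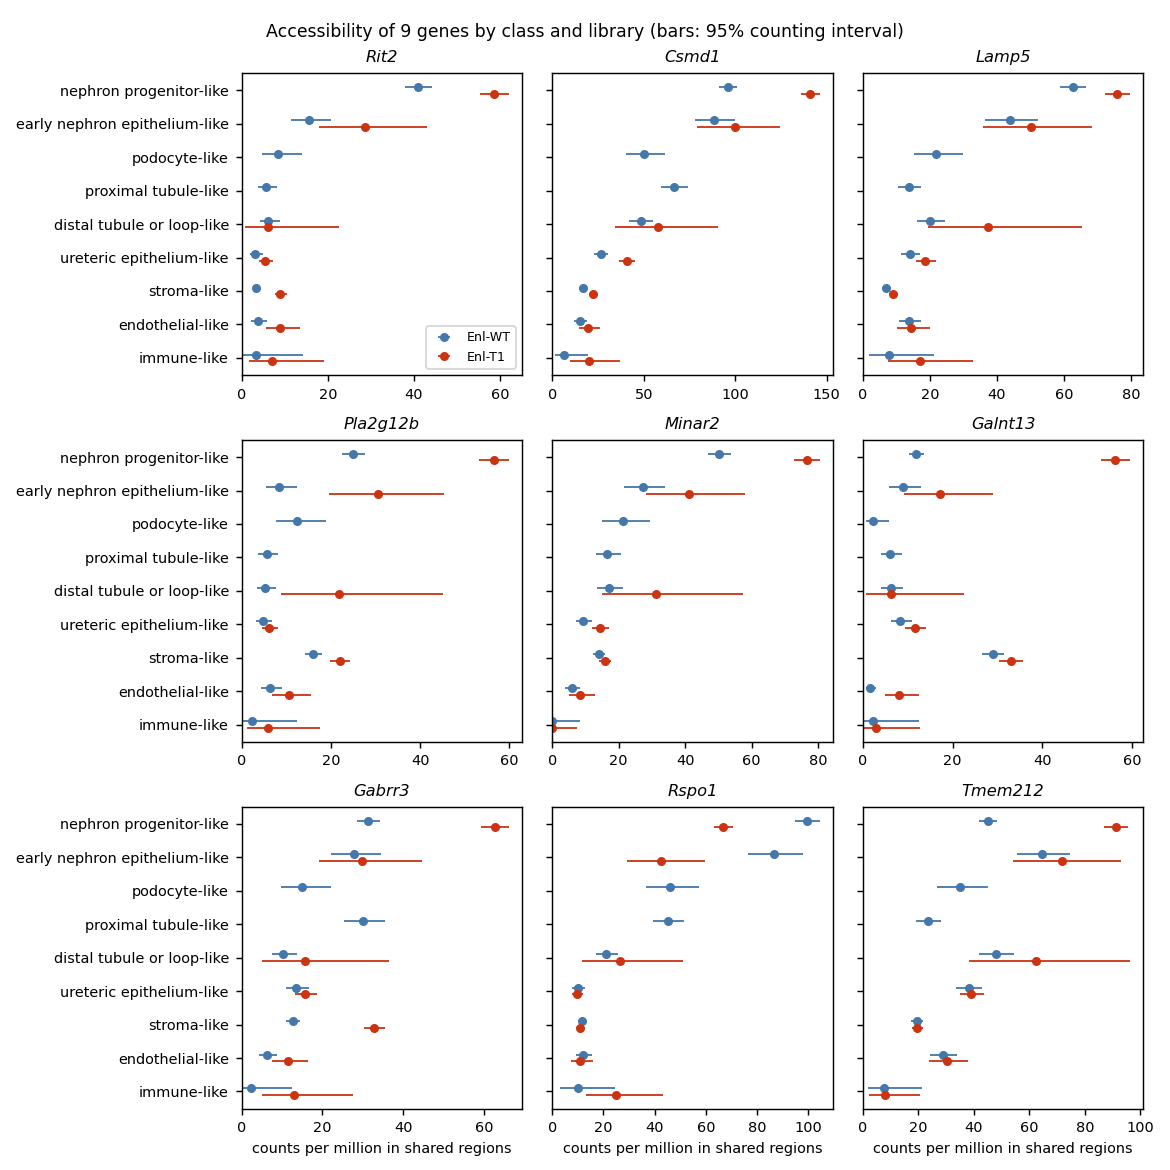
CPM in the shared regions of each gene (x axis, linear, from 0) by class (y axis) in Enl-WT (blue) and Enl-T1 (red), with 95% counting intervals. Galnt13 sits at 11.9 in Enl-WT and 56.2 in Enl-T1 progenitors, Rspo1 at 99.5 and 66.8, and most genes are highest in progenitors.

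Region by region, 18 of the 49 shared regions were at least 2-fold higher in Enl-T1 progenitors (5.05% of regions), and 38 were above 0. The 18 lay in 6 genes, with 4 each in Galnt13 and Tmem212, 3 each in Csmd1 and Gabrr3, and 2 each in Pla2g12b and Rit2. The medians were 0.45 over the 49 regions and 0.01 over the 98669 regions with enough fragments. A further 29 regions of the genes were called in Enl-T1 alone, at a median of 3.50 CPM, and 15 in Enl-WT alone, at a median of 3.39 CPM. Over the whole genome the balance was the other way, with 17478 regions called in Enl-T1 alone and 47872 in Enl-WT alone. Peaks were called in each library on its own, so a region missing from a list may still have had fragments there.

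**Figure D2:**
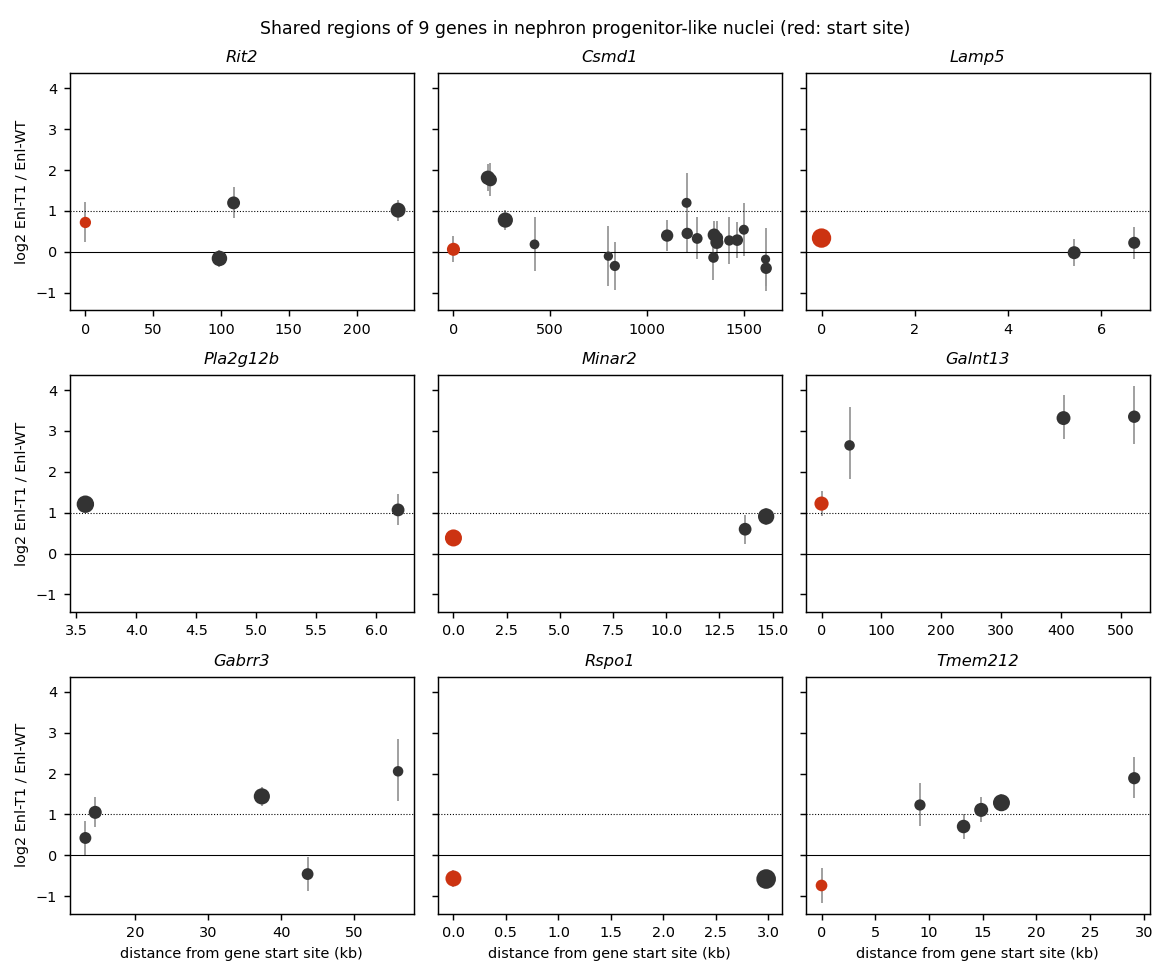
The log2 ratio of Enl-T1 to Enl-WT (y axis) of each shared region against its distance from the gene's start site in kb (x axis) in nephron progenitor-like nuclei; point area follows the counts, bars are 95% counting intervals, red marks the start site and the dotted line a 2-fold difference. Galnt13 regions lie between 1.22 and 3.35, and the start site of Tmem212 lies at -0.74 below its other regions.

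Outside the genes the regions had lower ratios. Those within 100 kb of a gene had a median log2 ratio of 0.17 in progenitors (74 regions), and those 500 kb to 1 Mb away had -0.03 (342 regions). Of the nearest protein-coding genes on both sides, 16 of 18 had enough fragments, with ratios from -0.51 to 0.72. Of these 0 were at least 2-fold higher (0.395% of all genes tested), a count that says little at so low a share. The highest was Syt4 beside Rit2, at 8.47 CPM in Enl-WT against 14.0, and Oit3, which lies 982 bp from Pla2g12b, had 24.8 against 38.2. In stroma-like nuclei Syt4 passed 2-fold, as Rit2 did, with 6.56 CPM against 13.7. It was 1 of 16 neighbours with enough fragments there (0.174% of all genes tested).

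**Figure D3:**
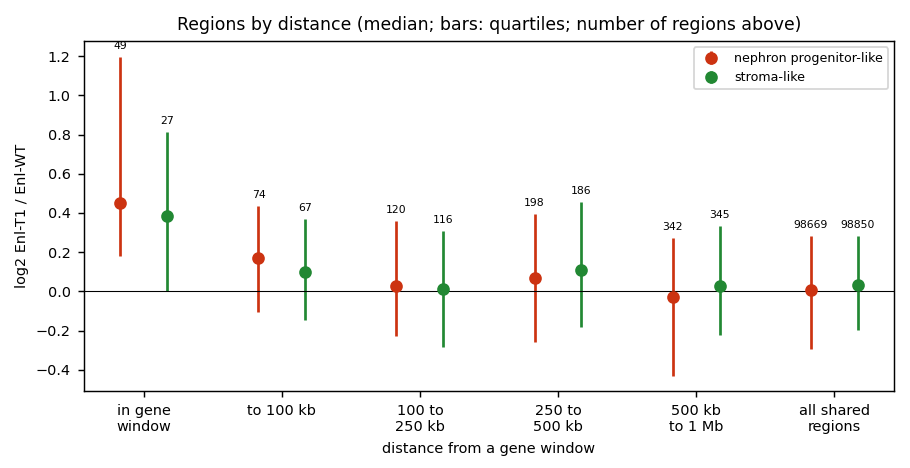
Median log2 ratio of Enl-T1 to Enl-WT (y axis, bars from the lower to the upper quartile, the number of regions above) of shared regions by distance from the nearest of the 9 genes (x axis) in progenitor-like (red) and stroma-like (green) nuclei. The median is 0.45 inside the genes and 0.17 within 100 kb in progenitors, against 0.01 over all regions. The genes were chosen by their contrast in progenitors.

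Levels in Enl-WT were also set side by side across classes, whose clusters were formed without the regions of the genes. The genes were chosen by values measured in progenitors of these data, so the counts that follow are a description. In Enl-WT, 7 of the 9 genes were at least 2-fold higher in progenitor-like than in stroma-like nuclei (6.7% of genes). The same count was 7 against ureteric epithelium-like (4.91% of genes) and 8 against endothelial-like nuclei (9.94% of genes). The 7 that passed against stroma included Rit2, with 40.9 CPM in progenitors and 3.33 in stroma, Rspo1 with 99.5 and 11.7, and Lamp5 with 62.7 and 6.94. These 3 genes had a progenitor level over stroma of 3.62, 3.09 and 3.17 on the log2 scale. Galnt13 had the opposite order, with 28.9 CPM in Enl-WT stroma and 11.9 in Enl-WT progenitors, a log2 ratio of -1.28 (-1.53 to -1.04), and in Enl-T1 the order turned to 32.9 in stroma and 56.2 in progenitors. Pla2g12b was 0.65 (0.42 to 0.87) above stroma in Enl-WT, against 1.36 (1.20 to 1.53) for the Enl-T1 library.

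Early nephron epithelium-like nuclei came next to progenitors in Enl-WT for Rspo1 and Csmd1, at 86.7 (76.4 to 98.1) and 88.2 CPM (77.8 to 99.7), and for both genes the intervals of the 2 classes overlap. Tmem212 and Galnt13 had their highest Enl-WT levels outside the progenitors, Galnt13 in stroma and Tmem212 in early nephron epithelium-like nuclei, at 64.6 CPM (55.7 to 74.5) against 44.9 in progenitors. Gabrr3 had 30.1 CPM (25.4 to 35.4) in Enl-WT proximal tubule-like nuclei, an interval that overlaps that of progenitors. Podocyte-like and proximal tubule-like nuclei numbered at least 50 in Enl-WT alone, where Csmd1 had 50.1 and 66.5 CPM and Rspo1 46.0 and 45.1.

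In stroma-like nuclei, which chose no gene but Gabrr3, 2 of the 9 genes were at least 2-fold higher in Enl-T1 (0.174% of genes), and the median was 0.38. Gabrr3 had 12.6 CPM (11.1 to 14.4) in Enl-WT against 32.8 (30.2 to 35.5), a log2 ratio of 1.37 (1.15 to 1.60). Rit2 had 3.33 CPM (2.55 to 4.29) against 9.01 (7.67 to 10.5), a ratio of 1.43 (1.00 to 1.88). Galnt13, the gene with the highest ratio in progenitors, had 28.9 CPM against 32.9 here, and Tmem212 had 19.5 in both. Of 27 regions of the genes with enough fragments, 5 were at least 2-fold higher (2.22% of regions), 2 each in Rit2 and Gabrr3 and 1 in Galnt13. The Gabrr3 region 37346 bp from the start site had 0.661 CPM in Enl-WT against 7.01, and that 55979 bp from it had 3.75 against 10.2. The Galnt13 region was the one 404480 bp into the gene, with 3.09 CPM against 7.34.

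The highest Gabrr3 levels in stroma lay in clusters 10 and 12, where Enl-T1 supplied 1028 and 889 nuclei and Enl-WT supplied 0 and 7. They had 71.6 CPM (63.4 to 80.7) and 48.2 (40.7 to 56.6), whereas in the stroma-like clusters with at least 50 nuclei of both libraries Enl-T1 nuclei had 11.7 to 24.3 CPM and Enl-WT nuclei 7.09 to 19.7. Whether these clusters are a cell state or a property of the library cannot be told apart. Rit2 in Enl-T1 nuclei had 3.56 to 13.2 CPM over the 7 stroma-like clusters with at least 50 of them.

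In ureteric epithelium-like nuclei 0 of the 9 genes were at least 2-fold higher (0.154% of genes), and in endothelial-like nuclei 0 of the 7 with enough fragments (0.292% of genes). The median in ureteric nuclei was 0.42, and that of the 7 genes in endothelial nuclei was 0.37. Over all 9 genes the endothelial median was 0.50, which takes in Rit2 and Galnt13 with fewer fragments than the minimum. Ureteric cluster 23, with 135 Enl-T1 and 25 Enl-WT nuclei and 1.33 times the median counts, had 90.8 CPM of Csmd1 and 67.4 of Lamp5 in Enl-T1, between the levels of all Enl-T1 ureteric nuclei (40.7 and 18.7) and of Enl-T1 progenitors (141 and 76.0). Without the clusters at least 1.2 times as deep as their library the ureteric median was 0.01. Removal of the nuclei most like simulated doublets gave 0.06 in ureteric and 0.16 in endothelial nuclei. Doublets were otherwise kept.

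**Figure D4:**
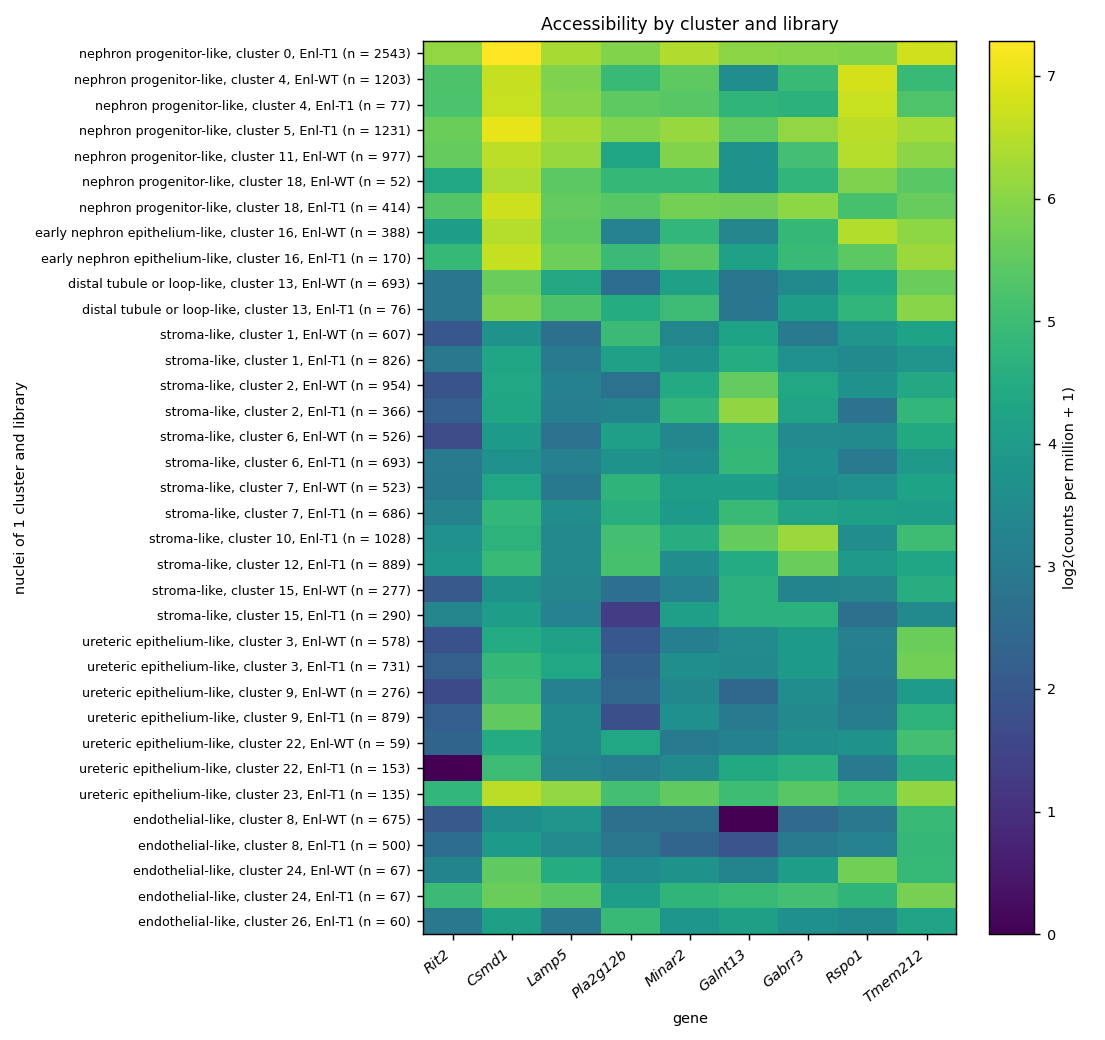
Accessibility of the 9 genes as log2(CPM + 1) (colour) by cluster and library (rows, with the number of nuclei) for clusters with at least 50 nuclei of a library. Galnt13 is low in Enl-WT progenitor clusters 4 and 11 (10.8 and 12.3 CPM) and high in Enl-T1 clusters 0 and 5 (64.2 and 44.5), and Gabrr3 stands out in stroma-like clusters 10 and 12.

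Levels also differed among the Enl-T1 progenitors. Cluster 0, the larger, had 108 CPM of Tmem212 and 59.0 of Rspo1, and cluster 5 had 76.7 and 91.0. A total of 77 Enl-T1 nuclei fell in cluster 4 beside 1203 of Enl-WT. There Rspo1 had 102 CPM (70.9 to 142) in Enl-T1 against 113 (106 to 120) in Enl-WT nuclei, and Gabrr3 had 24.7 (11.0 to 47.8) against 29.5 (25.9 to 33.5). Galnt13 had 26.2 (12.0 to 49.7) against 10.8 (8.65 to 13.3), from 18 counts in the Enl-T1 nuclei, and for all 3 genes the intervals overlap. Overlap of separate intervals does not show that levels are alike, and no interval of the ratio is given for this cluster.

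In early nephron epithelium-like nuclei, with 388 Enl-WT and 170 Enl-T1 nuclei in 1 cluster, Pla2g12b had 8.40 CPM (5.41 to 12.4) in Enl-WT against 30.5 (19.5 to 45.4), a log2 ratio of 1.86 (0.99 to 2.73). Rit2 had 15.6 CPM against 28.6, a ratio of 0.87 (0.08 to 1.63). For Gabrr3, Csmd1, Lamp5, Tmem212, Minar2 and Galnt13 the interval of the ratio contains 0. Pla2g12b had 49 and 48 counts there, fewer fragments than the minimum.

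Per nucleus, 91.4% of Enl-WT (90.2 to 92.5) and 94.1% of Enl-T1 progenitors (93.4 to 94.8, exact binomial) had a fragment in at least 1 of the 9 genes. Depth differs between the libraries, so each nucleus was also thinned to 2000 fragments in shared regions, which left out 31 Enl-WT and 112 Enl-T1 progenitors below that number. At equal depth the shares were 60.3% (58.3 to 62.3) and 72.8% (71.5 to 74.2). At least 3 of the genes were open in 4.47% (3.66 to 5.42) and 11.3% (10.3 to 12.3) of progenitors. The contrast in progenitors chose the genes, and nuclei of 1 library are not replicates, so these shares are a description. The unthinned shares differed by -2.98 percentage points (-7.36 to 1.45, Enl-T1 minus Enl-WT) with progenitors gated on markers one by one and by -0.94 (-2.83 to 0.99) with regions matched at 80% reciprocal overlap, and both intervals contain 0. Among thinned stroma-like nuclei, at least 1 gene was open in 23.3% and 28.5%, and at least 3 in 0.278% and 0.314%.

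At equal depth Galnt13 had a fragment in 2.46% (1.86 to 3.19) of Enl-WT and 9.59% (8.71 to 10.5) of Enl-T1 progenitors, and Tmem212 in 7.79% and 16.9%. Rspo1 went the other way, with 19.1% (17.4 to 20.7) and 12.0% (11.0 to 13.0). Lamp5 was found in 12.0% (10.7 to 13.5) and 13.6% (12.6 to 14.7), with overlapping intervals. These shares of single genes are a description too.

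**Figure D5:**
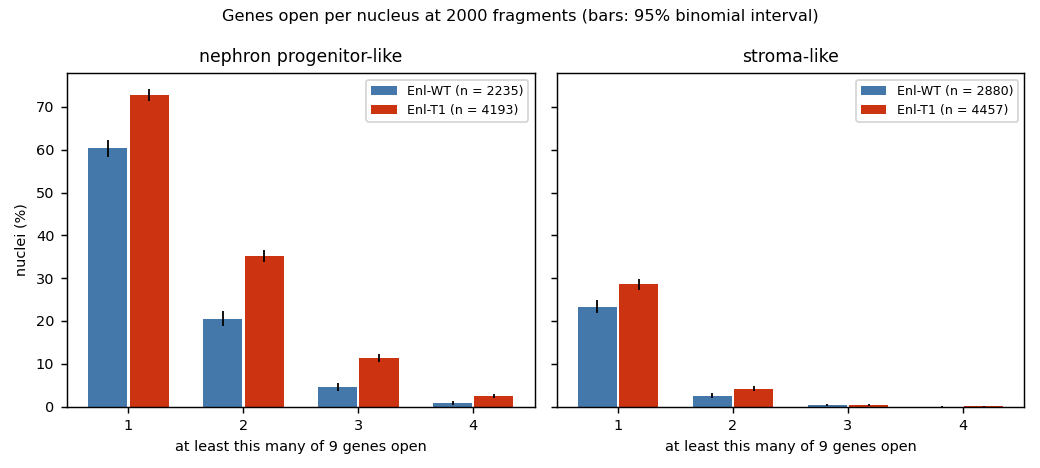
Share of nuclei (y axis, percent) with at least 1, 2, 3 or 4 of the 9 genes open (x axis) after thinning to 2000 fragments, in progenitor-like (left) and stroma-like (right) nuclei of Enl-WT (blue) and Enl-T1 (red), with 95% exact binomial intervals. The Enl-T1 share is higher at each number in progenitors, 72.8% against 60.3% for at least 1 gene. The genes were chosen by their contrast in progenitors.

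Close relatives of the 9 genes were taken as a further list. Of 30 paralogues, 28 had enough fragments in progenitors, with a median of -0.06. Of these 0 were at least 2-fold higher (0.395% of all genes tested) or lower (0.419%). At shares this low, 0 of 28 says little about the paralogues. The highest was Minar1, with a log2 ratio of 0.87 (0.65 to 1.09), and Csmd3 had 13.7 CPM in Enl-WT against 18.9. The other members of the GalNAc-transferase family ranged from -0.41 for Galnt9 to 0.32 for Galnt3. Lamp3 and Gabrr1 had no counts in shared regions in any class and so gave no value.

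The 12 R-spondin pathway genes had a median of 0.06 in progenitors. Of these 0 were at least 2-fold higher (0.395% of all genes tested) or lower (0.419%), which at such shares says little about the pathway. The receptors Lgr4, Lgr5 and Lgr6 had log2 ratios of -0.19, 0.18 and -0.13, and the ligases Znrf3 and Rnf43 0.11 and 0.28. Lef1, a nuclear effector of the pathway, had 54.9 CPM in Enl-WT progenitors against 78.2, a log2 ratio of 0.51 (0.39 to 0.63), while Tcf7, another, had 70.2 against 51.9, a ratio of -0.44 (-0.56 to -0.31). Rspo2, Rspo3 and Rspo4 had 0.06, -0.04 and -0.12, all with intervals that contain 0.

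The genes outside the list with the highest progenitor ratios were Tmco5 (2.92 CPM in Enl-WT against 13.4), Krt39, Tmem207, Fshr (3.89 against 14.7) and Cdh19, with log2 ratios of 2.20 down to 1.90. Over 17 class and library sums, as log2(CPM + 1), the genes whose level followed the mean of the 9 most closely were Stau2 (Pearson r = 0.961), Klhl1, Nav2, Kcnq5 and Scn3a (0.930). These sums share 2 libraries, and the r is a description. Markers of neurons were also measured in progenitors, since several of the 9 genes are neuronal. Their summed level was 432 CPM in Enl-WT against 466, 4 of 8 were higher in Enl-T1, and Syt1 had the largest difference, 78.7 CPM against 109. In stroma the sums were 210 and 220 CPM. Markers of early nephron epithelium summed to 432 CPM in Enl-WT progenitors against 507, with 5 of 8 higher, and those of distal tubule or loop to 383 against 483, with 5 of 9 higher. Podocyte markers summed to 499 against 454, with 1 of 8 higher. The part of such cells in the results was not tested.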

How the data were processed

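Cell Ranger ATAC 2.1.0 was run by the authors on each library alone with mouse build mm10, and the deposited values are raw counts of transposase cuts per peak and barcode. Values of 2 made up 80.1% of Enl-WT and 81.2% of Enl-T1 entries, so a fragment was taken as 2 counts. Barcodes with 2000 to 100000 counts were kept; the study's further filters need data not used here. The libraries hold 138176616 and 110265593 counts over all barcodes, and 88.8% and 94.9% of these lay in shared regions. No region passed a chromosome end on the 20 chromosomes compared with GRCm38.p6.

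Nuclei were clustered from latent semantic components 2 to 30, 15 neighbours and Leiden resolution 1 (scikit-learn 1.9.0, leidenalg 0.10.2, Python 3.11.15) and named from marker lists, by a score of at least 0.4, 3 raised markers and a lead of 0.1 log2 over other kidney lineages. That the lead ignores lists of cells from outside the kidney, and that clusters under 0.5 of the median depth stay unnamed, was set after the clusters were seen. CPM is counts scaled to a total of 1000000 over the shared regions of a class and library. Levels and log2 ratios have exact Poisson or conditional binomial intervals on fragments, shares Clopper-Pearson ones (95%, counting error only). The intervals of the ratios alone were tried on simulated data. Those data follow the counting model that the intervals assume, so they cannot show how the intervals hold for real nuclei or libraries. Called means at least 2-fold with at least 50 fragments; p-values were not computed, as each genotype has 1 library. Named genes were the 9 genes, their most counted and start-site regions, paralogues, R-spondin genes, neighbours, 5 genes of like pattern and 5 of highest ratio outside the list. The genes and lists were chosen with earlier results of these data known. Alternatives are given in the closing section.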

Additional observations from a re-analysis of the deposited data

Results flagged for a closer look

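Peaks of the 9 genes called in 1 library alone lay outside the comparison of shared regions, and the 3 with the most counts in each library carried signal in progenitor-like nuclei. In Enl-WT these were the Rspo1 peak upstream of the start site with 37.6 CPM, Tmem212 region 5 with 6.21 CPM and Csmd1 region 10 with 5.08 CPM. In Enl-T1 they were Csmd1 region 24 with 14.0 CPM, Rit2 region 12 with 10.1 CPM and Csmd1 region 25 with 7.96 CPM. The level at these places in the other library was not measured.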

How the results depend on the processing

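No paired analysis was possible because each group has 1 library. The median log2 ratio of the 9 genes in progenitors (0.61) moved to 0.33 with the start-site region alone and to 0.38 where lists of cells from outside the kidney counted in naming, which leaves Enl-T1 cluster 0 unnamed. The ureteric median (0.42) moved to 0.025 at resolution 2, 0.012 with that naming and 0.0082 without clusters whose median depth was at least 1.2 times that of their library. The medians in stroma and endothelium stayed within the interval of their middle gene. In endothelium that gene is Minar2, with 59 and 41 counts and an interval of -0.39 to 1.36, so staying within it says little. Removal of the nuclei most like doublets lowered the ureteric and endothelial medians, as given above, though both stayed within the interval of the middle gene. The difference in the share of progenitors with a gene open (2.75 percentage points, Enl-T1 minus Enl-WT) became 12.5 after thinning, -2.98 with nuclei gated on markers one by one and -0.94 with regions matched at 80% reciprocal overlap, which removes regions. The cause was not tested in the other cases. For single genes, 411 of 455 values stayed within their interval, 42 moved past it and 2 changed sign, Tmem212 in progenitors with the start site alone (-0.74) and Galnt13 in stroma at 80% overlap (-0.014). In progenitors 93 of 114 stayed, 20 moved and 1 changed sign. Some values could not move. A lead of 0.2 kept the same nuclei, naming with lists from outside the kidney left stroma and endothelium unchanged, and removal of deep clusters left stroma unchanged. Rspo1 in progenitors ranged from -0.66 to -0.36 and Galnt13 from 1.22 to 2.31. The naming that counts lists from outside the kidney and the removal of deep clusters were chosen after seeing the data. Depth limits the values with fewest counts, such as the 17 and 18 counts of Gabrr3 and Galnt13 in Enl-T1 nuclei of cluster 4.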
